A study of Mus musculus with 2 samples.

Results

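Il6st encodes gp130, the receptor chain through which the cytokines of the interleukin-6 family signal. Examined here are Il6st, its partner receptors Il6ra, Osmr, Lifr and Il11ra1, the kinases Jak1, Jak2 and Tyk2, the transcription factor Stat3 and the feedback inhibitor Socs3. A gene entered if an array probe set was annotated to that gene and to no other. This gave values for 9 of the 10 genes, of 19935 genes measured in all. Il11ra1 was among the genes for which no such probe set was listed, and it has no value here. Il6st was chosen by its log2 difference on these same arrays, and the others as its pathway partners with their values known, so every difference below is a description and none was tested.

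The study profiled mRNA on single-channel arrays in cells sorted from the bone marrow of ddY mice, an outbred strain, at 6 weeks of age. One sorted population was RANKhigh c-Fmslow, with much surface RANK (the receptor through which RANKL drives osteoclast formation) and little c-Fms (the receptor for the growth factor M-CSF). The other, against which it is set, was RANKlow c-Fmshigh. They are called RANKhigh cells and c-Fmshigh cells below. Both were sorted from gradient-purified mononuclear cells, of mice for which the labels give no genetic change and no agent, and each was measured on 1 array. The number of mice behind an array and their sex are not in the labels. With 1 array per population no difference has a replicate check. Values are the deposited linear intensities, and differences are log2 intensity on the RANKhigh array minus that on the c-Fmshigh array, so a negative value means lower in RANKhigh cells. Intensities of different probe sets are not comparable as amounts of RNA.

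In the gp130 system interleukin-6 and interleukin-11 first bind their own receptor chain, which then brings a pair of gp130 chains into a complex. Leukaemia inhibitory factor signals through gp130 together with LIFR, and oncostatin M through gp130 together with OSMR or LIFR. JAK kinases bound to the chains phosphorylate them, STAT3 docks and moves to the nucleus, and SOCS3, which STAT3 induces, binds gp130 and shuts the signal down. In bone, cytokines of this family are known to act on osteoblasts, which then make RANKL, and interleukin-6 also acts on myeloid cells directly.

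The 250 bases before the transcription start of Il6st, Il6ra and Stat3 are shown because these were the members lower by 1.5-fold or more in RANKhigh cells. Those of Socs3 are shown as the feedback gene that STAT3 switches on. Sequences are from RefSeq on the build GRCm38.p6, which matched all 10 genes by symbol. Capitals mark matches, on either strand, to a STAT motif (TTCNNNGAA), to a motif of ETS factors such as PU.1 (AGGAAGT) and to the CCAAT box (CCAAT), motifs that do not overlap one another in these windows and that were picked with the sequences in view.
Il6st, chr13:112463820-112464069, plus strand: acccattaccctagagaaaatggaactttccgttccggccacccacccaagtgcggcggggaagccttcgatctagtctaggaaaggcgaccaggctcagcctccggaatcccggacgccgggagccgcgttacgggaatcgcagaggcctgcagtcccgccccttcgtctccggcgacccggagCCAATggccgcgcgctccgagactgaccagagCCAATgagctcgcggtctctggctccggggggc
Il6ra, chr3:89913197-89913446, minus strand: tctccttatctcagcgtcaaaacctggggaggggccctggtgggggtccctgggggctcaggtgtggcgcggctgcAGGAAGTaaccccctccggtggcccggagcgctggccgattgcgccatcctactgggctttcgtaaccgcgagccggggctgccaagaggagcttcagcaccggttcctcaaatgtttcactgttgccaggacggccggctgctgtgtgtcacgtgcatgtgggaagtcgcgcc
Stat3, chr11:100939541-100939790, minus strand: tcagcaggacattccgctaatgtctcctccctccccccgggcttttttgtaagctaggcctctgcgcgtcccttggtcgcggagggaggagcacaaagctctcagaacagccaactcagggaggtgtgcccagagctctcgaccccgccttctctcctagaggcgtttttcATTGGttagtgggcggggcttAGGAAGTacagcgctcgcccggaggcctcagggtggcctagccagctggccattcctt
Socs3, chr11:117969367-117969616, minus strand: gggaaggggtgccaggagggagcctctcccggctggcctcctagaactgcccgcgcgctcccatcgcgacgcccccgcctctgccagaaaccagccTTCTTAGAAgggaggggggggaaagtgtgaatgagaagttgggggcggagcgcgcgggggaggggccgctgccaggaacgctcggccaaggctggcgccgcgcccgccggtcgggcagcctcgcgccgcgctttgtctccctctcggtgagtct
The Il6st window held 2 CCAAT boxes, which begin 65 and 33 bases before the start, and no match to the STAT or ETS motif. Its G and C content was 66.0%, against a median of 52.4% over all 32851 RefSeq windows of this length. It held 26 CpG dinucleotides against a median of 6. The other printed windows also lay above both medians, with 71.6% and 26 CpG for Socs3, 65.2% and 18 for Il6ra, and 60.8% and 13 for Stat3. The Il6ra and Stat3 windows each held 1 ETS motif, which was also in the window of Il11ra1, so in 3 of the 10 genes. Stat3 had 1 CCAAT box as well, on the minus strand of the printed sequence. The CCAAT box was in 6 of the 10 genes, namely Il6st, Stat3, Jak1, Tyk2, Lifr and Il11ra1. Socs3 was the 1 gene of the 10 with a STAT motif. Of all windows 7.02% held the STAT motif, 7.69% the ETS motif and 33.8% the CCAAT box. These shares are per window, while the 10 genes have 12 windows and a gene was counted with a match in any of its own. A match is a stretch of letters, and binding was not measured.

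Il6st, the signalling chain itself, had an intensity of 385 in RANKhigh cells and 2513 in c-Fmshigh cells. It was thus 6.53-fold lower in RANKhigh cells, a log2 difference of -2.71. A level filter kept the 11089 genes with at least 1 value at or above the median intensity (93.6). Of these, 7 had a difference this low or lower, Il6st included. As a guide to background serve 1195 chemoreceptor genes (olfactory and vomeronasal receptors), whose 95th percentile was 83.6 in RANKhigh and 81.8 in c-Fmshigh cells. Both Il6st intensities lay above it. In such bulk samples fewer cells that express a gene and less RNA per cell cannot be told apart.

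Of the partner receptors, Il6ra differed most. This gene encodes the chain that binds interleukin-6 and hands it to gp130. It stood at 164 in RANKhigh cells, against 389.9 in c-Fmshigh cells, 2.37-fold lower (log2 difference -1.25). Both chains of the interleukin-6 receptor were therefore lower in the RANKhigh population, Il6st by more. Lifr, the receptor of leukaemia inhibitory factor, had 157 in RANKhigh and 191 in c-Fmshigh cells, a log2 difference of -0.28. Osmr, the oncostatin M receptor chain, had 40.9 in RANKhigh and 37.1 in c-Fmshigh cells. Both Osmr values lay under the guide to background, which leaves its detection and any difference undecided.

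The kinases differed little. Jak1, the kinase on which gp130 signalling chiefly depends, had 1525 in RANKhigh cells and 1318 in c-Fmshigh cells (log2 difference 0.21). For Jak2, the kinase of the erythropoietin and thrombopoietin receptors among others, the values were 547 in RANKhigh and 585 in c-Fmshigh cells (-0.09). Tyk2, which also serves the type I interferon receptor, had 144 in RANKhigh and 163 in c-Fmshigh cells (-0.18). All 3 kinases were above the guide on both arrays, and none was 1.5-fold apart.

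Stat3, the main transcription factor of the pathway, had 287 in RANKhigh cells and 482 in c-Fmshigh cells. This was 1.68-fold lower (log2 difference -0.75), and 8.07% of the genes above the level filter had a difference as low or lower. Socs3 averaged 84.7 in RANKhigh and 77.1 in c-Fmshigh cells over its 2 probe sets. The dimmer probe set read 64.8 in RANKhigh against 60.2 in c-Fmshigh cells, and the brighter 111 in RANKhigh against 98.9 in c-Fmshigh cells. Their log2 differences were 0.11 and 0.16. The dimmer lay under the guide to background on both arrays and the brighter a little above it. The plot of intensities shows these values gene by gene.

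**Figure D1:**
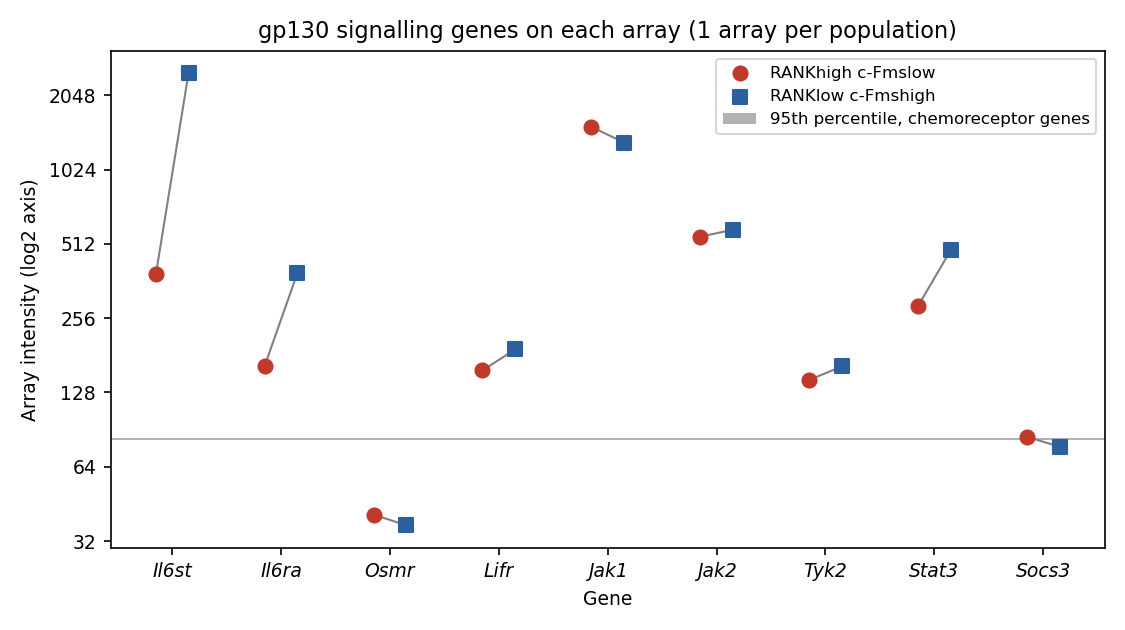
Intensity of each measured gp130 signalling gene (log2 axis) on the RANKhigh array (red circles, left of each pair) and the c-Fmshigh array (blue squares), 1 array each, with the grey line at the 95th percentile of the chemoreceptor genes. Il6st (385 in RANKhigh, 2513 in c-Fmshigh cells) has the steepest line, followed by Il6ra (164 in RANKhigh, 389.9 in c-Fmshigh cells) and Stat3 (287 in RANKhigh, 482 in c-Fmshigh cells), and heights are not comparable between genes.

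Of the 9 measured genes 7 passed the level filter. The exceptions were Osmr and Socs3. Among the 7, Il6st and Il6ra were lower in RANKhigh cells by 2-fold or more and 0 were higher by that much, beside 4.26% and 4.34% of all 11089 genes in those directions. Counted at 1.5-fold, Stat3 joined them, beside 12.4% of all genes lower by that size. These same differences guided the choice of genes, so nothing is read from the counts. Over the 9 genes the median log2 difference was -0.18, against 0.01 over all 19935 genes. The members thus ranged from a receptor chain near the lower edge of all genes to kinases near the middle, as the plot of both log2 intensities shows.

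**Figure D2:**
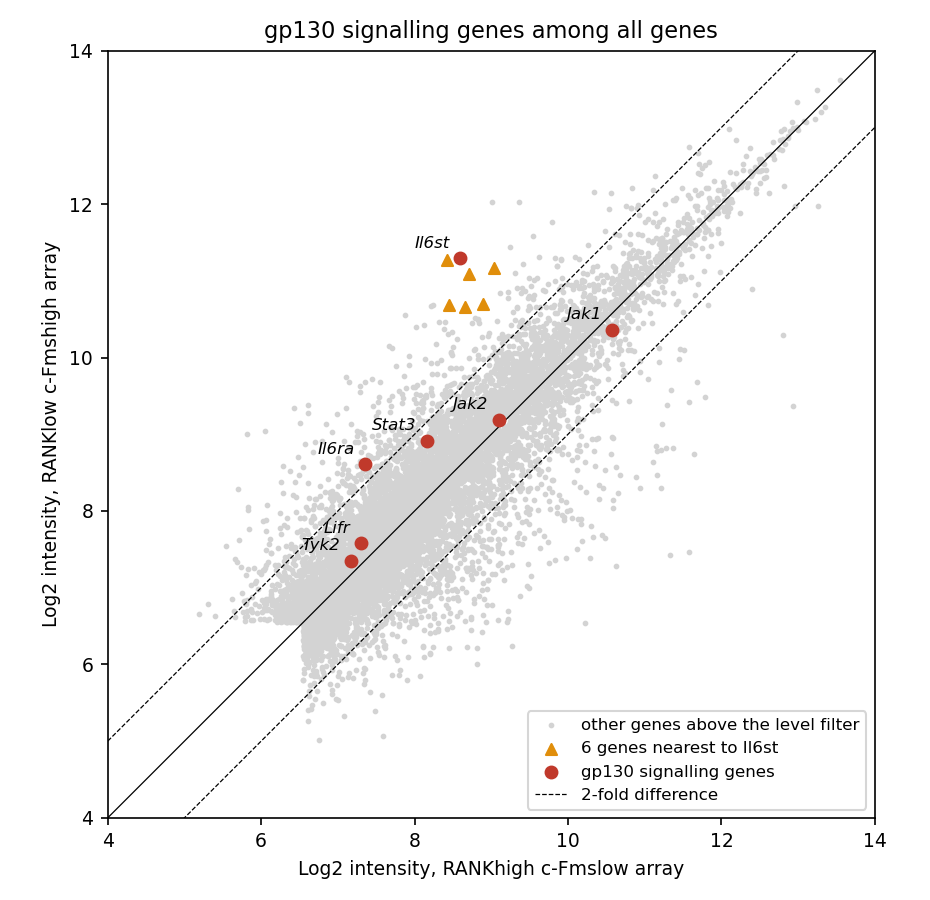
Log2 intensity on the RANKhigh array (x axis) against the c-Fmshigh array (y axis), 1 point per gene above the level filter. Shown are the gp130 signalling genes in red, the 6 named genes nearest to Il6st as orange triangles, and dashed lines at 2-fold. Il6st lies 2.71 above the diagonal and Il6ra 1.25, while the differences of Jak1, Jak2, Tyk2 and Lifr lie between -0.28 and 0.21.

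The genes most like Il6st were sought as those nearest to it in the plane of its log2 intensities on both arrays. This compares 2 values per gene and no more. Unnamed gene models, microRNAs and small nucleolar RNAs were left out. The nearest named gene was Gria3, an ionotropic glutamate receptor gene, at a distance of 0.17, with 342 in RANKhigh and 2466 in c-Fmshigh cells. Rnd3 followed at 0.24, with 418 in RANKhigh and 2177 in c-Fmshigh cells. Anxa2, a calcium-dependent membrane-binding protein, came next at 0.46 (524 in RANKhigh, 2293 in c-Fmshigh cells). Ms4a4c, the transcription factor gene Tfec and Ly6a2 lay at 0.63, 0.64 and 0.66. Being this near to Il6st fixes the direction of these 6 genes, and they were lower in RANKhigh cells by 3.52-fold (Ly6a2) to 7.20-fold (Gria3). Distance follows the brightness of a probe set as well as the difference. A gene with a difference close to that of Il6st but another brightness, such as Fn1 (-2.66), was thus left out.

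The ligands of gp130 were compared next, from a list of 11 cytokines and soluble partners of which 9 were measured. Only 4 passed the level filter, and 0 of those were 2-fold apart. Over all 11089 genes above the filter 4.26% were that much lower and 4.34% higher. Osm, oncostatin M, which myeloid cells secrete, had 138 in RANKhigh and 166 in c-Fmshigh cells. Ebi3, which pairs with the product of Il27 to form interleukin-27, had 242 in RANKhigh and 289 in c-Fmshigh cells. Il6 itself, named here after its values were seen, had 64.0 in RANKhigh and 30.0 in c-Fmshigh cells, both under the guide, and Il11, Lif and Ctf1 were under it on both arrays too. The list median was -0.02.

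Of 8 measured receptor chains of the gp130 family and fold beyond the members, 4 passed the level filter. At 2-fold or more, 1 of the 4 was lower and 0 were higher in RANKhigh cells, beside 4.26% and 4.34% of all genes. Il12rb2, the signal-transducing chain of the interleukin-12 receptor, had 74.5 in RANKhigh and 182 in c-Fmshigh cells. The lower value was not above the guide, so Il12rb2 was at least 2.18-fold lower. Csf3r, the G-CSF receptor and the gp130 relative of the granulocyte lineage, which is also in the neutrophil marker list, had 298 in RANKhigh and 377 in c-Fmshigh cells (log2 difference -0.34). The list median was -0.13. Lepr and Il23r were under the guide on both arrays.

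Chains of other cytokine receptors, some shared between receptors and some not, differed in both directions. All 13 measured genes passed the level filter. At 2-fold or more, 4 were lower and 2 higher in RANKhigh cells, beside 4.26% and 4.34% of all genes. The list median was -0.43. Il13ra1, a chain of the interleukin-4 and interleukin-13 receptor, had 51.8 in RANKhigh and 313 in c-Fmshigh cells, and was at least 3.75-fold lower because the lower value was under the guide. Il10ra, the ligand-binding chain of the interleukin-10 receptor, which also signals through STAT3, was 2.53-fold lower (168 in RANKhigh, 425 in c-Fmshigh cells). Ifngr1, the ligand-binding chain of the interferon-gamma receptor, was 2.49-fold lower (621 in RANKhigh, 1545 in c-Fmshigh cells), and its partner Ifngr2 was 2.26-fold lower (327 in RANKhigh, 738 in c-Fmshigh cells). Il7r, the interleukin-7 receptor of B cell precursors and T cells, ran the other way, 2.89-fold higher at 576 in RANKhigh against 199 in c-Fmshigh cells. Epor, the erythropoietin receptor, which is also in the erythroid marker list, was 2.21-fold higher (245 in RANKhigh, 111 in c-Fmshigh cells). Ifngr2 and Epor were named after their values were seen. Il6st was thus 1 of several cytokine receptor chain genes lower in RANKhigh cells, while Il7r and Epor were higher.

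Downstream signalling genes other than the members were read against the shares over all genes, of which 4.26% passed 2-fold downwards and 4.34% upwards. Of 5 other STAT genes measured, 0 passed 2-fold. Stat4, the factor of interleukin-12 signalling in T and NK cells, lay just inside at 223 in RANKhigh against 112 in c-Fmshigh cells (log2 difference 0.997), and Stat5b was 1.52-fold lower (147 in RANKhigh, 223 in c-Fmshigh cells). Of 16 further inhibitors of JAK-STAT signalling, 14 passed the level filter and 0 passed 2-fold, with a median of -0.10. Among them Sh2b3, an adaptor that restrains JAK2, had 315 in RANKhigh and 169.6 in c-Fmshigh cells, and the phosphatase gene Ptpn1 had 179.7 in RANKhigh and 306 in c-Fmshigh cells. In the SHP2-RAS-MAPK arm, the other route from gp130, 9 genes were measured. Their median was -0.38, and 1 was at least 2-fold lower, the docking adaptor Gab2 (192 in RANKhigh, 389.9 in c-Fmshigh cells, 2.04-fold, or under 2-fold with a pseudocount of 16). Map2k2, a MAP kinase kinase, was 1.72-fold higher (220.4 in RANKhigh, 128 in c-Fmshigh cells).

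Genes of receptor shedding and turnover, the list with the proteases that release soluble interleukin-6 receptor, had a median of 0.04, which turned to -0.01 under quantile normalization and was -0.38 over the 6 genes above the level filter. Of these 6, 1 was at least 2-fold lower, beside 4.26% of all genes. It was Erlin2, a gene of protein turnover in the endoplasmic reticulum, at 198 in RANKhigh and 401 in c-Fmshigh cells (log2 difference -1.02). Cbl, an E3 ubiquitin ligase, lay just inside 2-fold at 436 in RANKhigh and 869 in c-Fmshigh cells (-0.996). Both sit on the threshold, so the count was 2 with array medians centred and 0 with quantile normalization or a pseudocount of 16.

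Genes known as STAT3 targets in various cell types had a median of 0.16, with 10 of the 24 measured below 0 and 14 above. Of the 24, 21 passed the level filter, and at 2-fold or more 1 was lower and 2 were higher in RANKhigh cells, beside 4.26% and 4.34% over all genes. Lrg1, a secreted leucine-rich glycoprotein also stored in neutrophils, had 452 in RANKhigh and 64.1 in c-Fmshigh cells, at least 5.52-fold higher. Bcl2l1, which encodes the survival protein BCL-XL and is abundant in maturing erythroid cells, was 2.41-fold higher (477 in RANKhigh, 198 in c-Fmshigh cells). Fgl2, a fibrinogen-like protein of macrophages, was 2.36-fold lower (91.5 in RANKhigh, 216 in c-Fmshigh cells). Levels of target genes do not measure STAT3 activity, which was not assayed. The plot of pathway differences sets all these lists side by side.

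**Figure D3:**
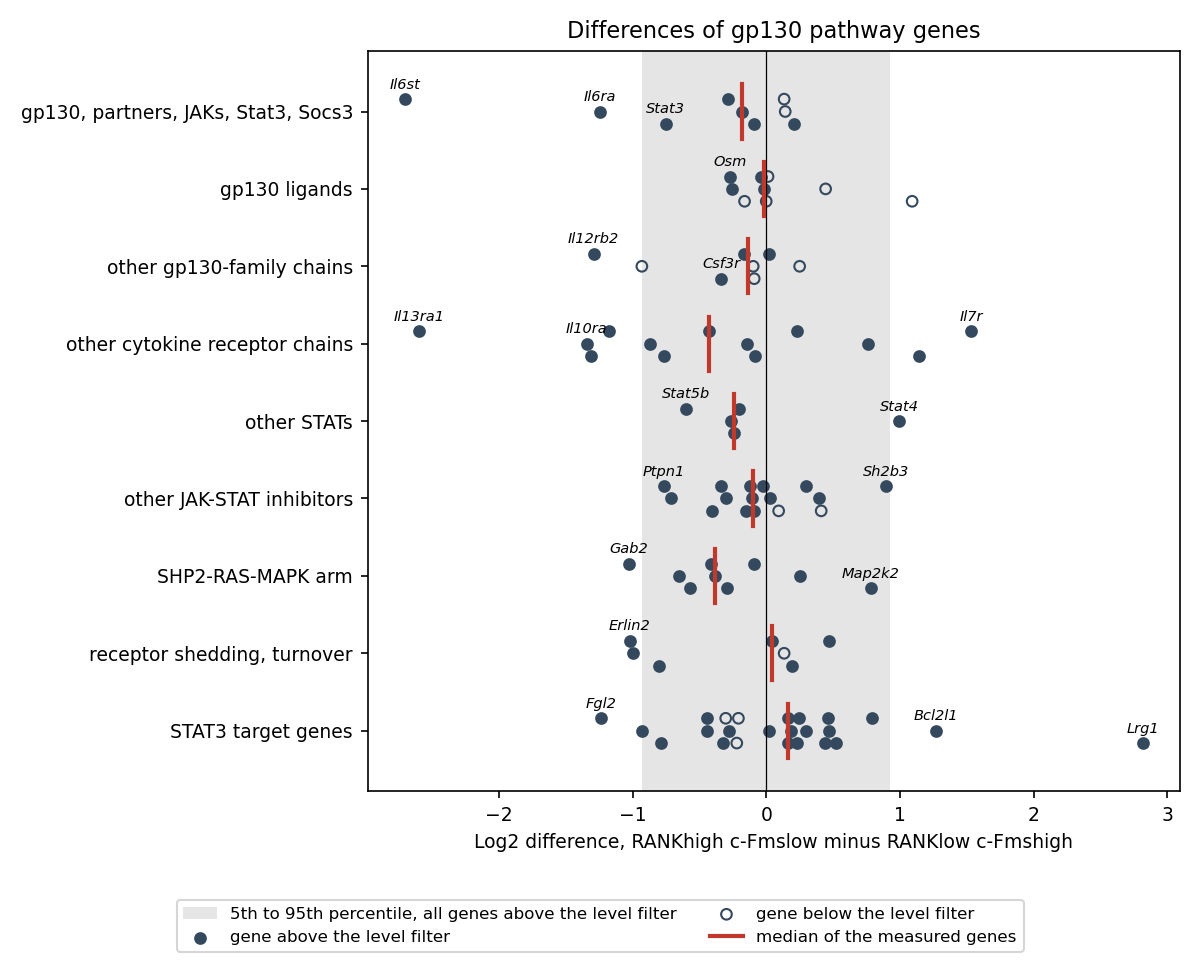
Log2 difference of each measured gene (RANKhigh c-Fmslow minus RANKlow c-Fmshigh, x axis) by list, with filled points above the level filter, open points below it, red bars at list medians over the measured genes, and grey shading from the 5th to the 95th percentile of all 11089 genes above the filter (-0.93 to 0.92). Il6st stands at -2.71 and Il6ra at -1.25, both left of the shading. Il13ra1, Il12rb2 and Lrg1 are drawn at their measured values, although each has 1 value under the guide to background and the text gives only a bound for it. The median of the shedding list, near 0, changes sign under quantile normalization.

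Many markers of the cell types that the sorted populations could hold differed between the arrays as well, in both directions. Csf1r, which encodes c-Fms, ran with its label, at 164 in RANKhigh against 821 in c-Fmshigh cells. Tnfrsf11a, which encodes RANK, was not higher in RANKhigh cells (104 in RANKhigh, 119 in c-Fmshigh cells). Both Tnfrsf11a values lay little above the guide to background (83.6 in RANKhigh, 81.8 in c-Fmshigh cells). The label names surface protein, so these values do not decide whether the mRNA follows it. All 10 measured monocyte markers were lower in RANKhigh cells, 6 of them at least 2-fold. Their median was -1.77 and their summed intensity 5962 in RANKhigh against 21224.5 in c-Fmshigh cells. Csf1r, whose protein was used for the sort, is 1 of the 10 and of the 6. It is in the median and the sum too, so this list is not independent of the sort. All 10 were above the guide on both arrays. Sums of intensities, here and for erythroid genes below, follow the brightest probe sets and are not amounts of RNA. F13a1, a monocyte transglutaminase, and Fn1, fibronectin, had differences of -3.01 and -2.66, either side of Il6st. Lists that were higher in RANKhigh cells were those of erythroid cells (9 of 9 measured genes at least 2-fold, median 2.35, summed intensity 12920.5 in RANKhigh, 3223 in c-Fmshigh cells), early B cells (10 of 11, 1.77) and mature B cells (7 of 7, 1.94). Granulocyte lists were higher as well, with 9 of 14 neutrophil (median 1.69), 5 of 7 eosinophil (1.87) and 4 of 6 basophil and mast cell genes (1.67) at least 2-fold higher. Of T cell, NK cell, plasma cell and megakaryocyte genes 3 of 8, 3 of 7, 3 of 7 and 1 of 4 were, with medians of 0.70, 0.91, 0.25 and 0.71 over measured genes and of 0.73, 1.39, 0.68 and 0.71 over those above the level filter. Among NK cell genes Ncr1, Klrb1c and Eomes were under the guide on both arrays. Over all 11089 genes, 4.26% were at least 2-fold lower and 4.34% higher. The marker counts use measured folds, also where the lower value was under the guide. For Cxcr5, a mature B cell marker, and Il5ra, an eosinophil marker, the bounds were 1.27-fold and 1.21-fold. A pseudocount of 16 gave 5 mature B cell, 4 eosinophil and 2 T cell genes at least 2-fold higher. Quantile normalization gave 10 neutrophil genes. Stem and progenitor genes (median -0.04) were divided, and stromal and endothelial genes (-0.11) had 0 past 2-fold and 4 of 8 under the guide on both arrays. The part that any of these cell types had in the Il6st, Il6ra and Stat3 differences was not tested.

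**Figure D4:**
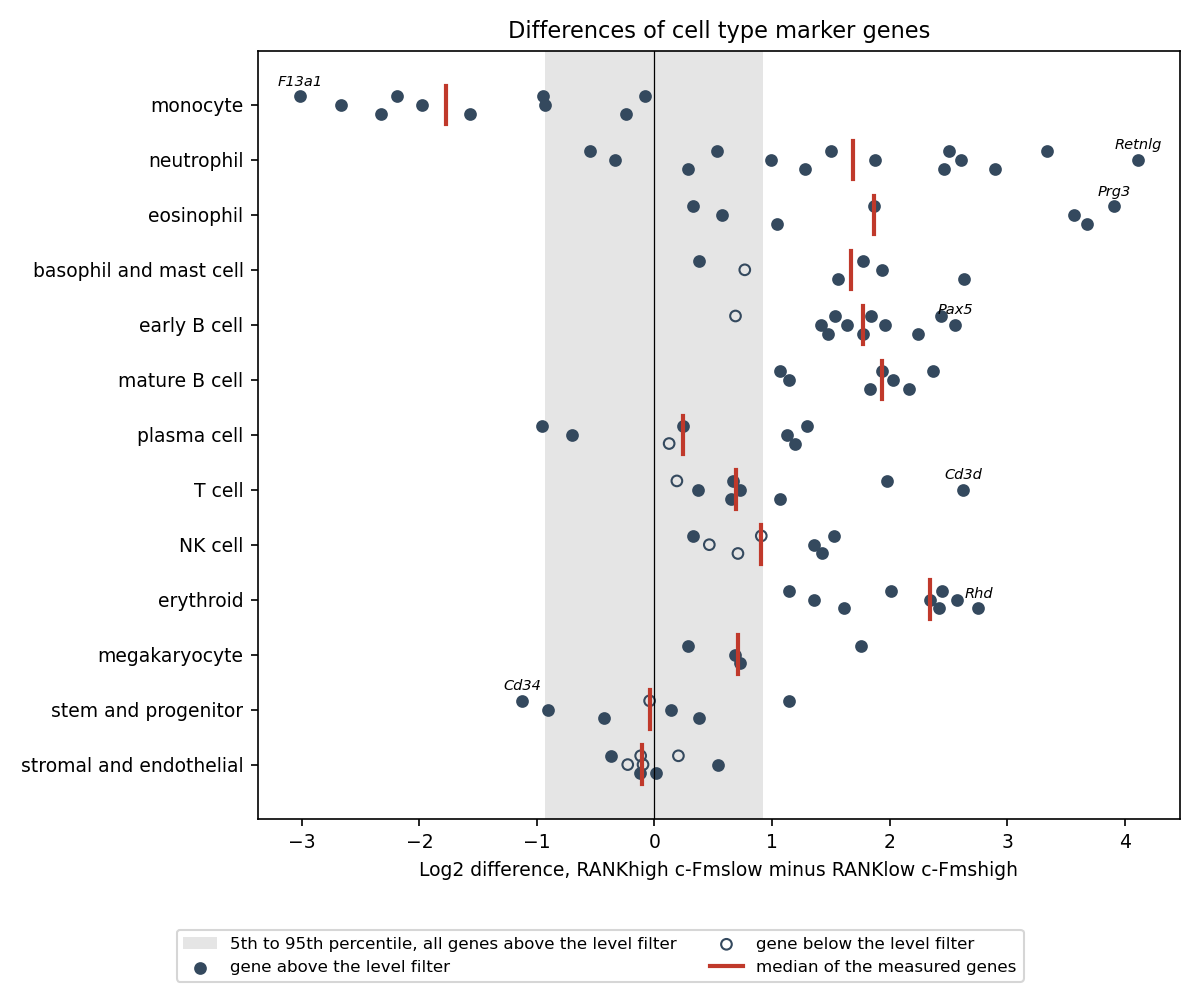
Log2 difference of cell type marker genes (RANKhigh c-Fmslow minus RANKlow c-Fmshigh, x axis) by list, drawn as in the plot of pathway differences. Monocyte genes, the sort marker Csf1r among them, lie to the left (median -1.77), and most erythroid, B cell and granulocyte genes lie to the right (medians 1.67 to 2.35).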

How the data were processed

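Intensities were deposited by the authors as 1 linear value per probe set and array (28815 probe sets, 19.9 to 13198 on the RANKhigh array and 20.3 to 13453 on the other). The tools named per the submitters' processing notes are GCOS 1.4 and RMA. What each did is not given in the sources used here, nor how values became linear after RMA, which returns log2. They were put on the log2 scale with no pseudocount and no further scaling, so between-array normalization is the authors'. In the platform annotation of 2016, 21780 probe sets named 1 gene, 1605 several and 5430 were not listed. Probe sets of a gene were averaged on the log2 scale.

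The members and all gene lists (8 of the pathway, 13 of cell type markers) were chosen with earlier results of these data known. Named are all members, the sort markers and, of each pathway list, up to 4 genes at least 2-fold apart (where fewer than 2 were, the 2 with the largest differences). The 6 genes nearest to Il6st, unnamed gene models and small RNAs left out, and up to 2 markers a list are named too. Genes named only as under the guide to background were named after their values were seen. Where a lower value was under the guide to background, itself chosen after the data had been seen, the fold is a bound. No test was run, since each group is 1 array. The number of arrays limits the precision. The size rule was run on simulated data with planted differences far past 2-fold and little noise. That checks the code and cannot show how often the rule errs on these arrays. Python 3.11.15, numpy 2.4.6 and pandas 2.3.3 were used.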

Additional observations from a re-analysis of the deposited data

How the results depend on the processing

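Centring array medians, quantile normalization, a pseudocount of 16, the brightest probe set of each gene and adding probe sets that name several genes left every member's difference within 0.19 of its value, the median gap between 2 probe sets of a gene (558 genes). Il6st ranged from -2.74 to -2.63 (6th to 8th lowest), Il6ra from -1.28 to -1.17 and Stat3 from -0.78 to -0.71, and 2 members stayed at least 2-fold lower. The members' median was -0.28 above the level filter and, in an alternative added after seeing the data, -0.14 without Il6st. With the brightest probe set 1 further JAK-STAT inhibitor, against 0, was 2-fold lower. No paired analysis was possible because each population is 1 array, and no replicate could be left out.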

Other observations

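Among the genes with an interleukin receptor symbol that stood in none of the lists, a set drawn after the data had been seen, 22 were measured and 15 passed the level filter. At 2-fold or more, 0 of the 15 were lower and 3 higher in RANKhigh cells, beside 4.26% and 4.34% of all genes. The median of the 15 was 0.21. Both chains of the interleukin-18 receptor were among the 3. Il18rap had 348 in RANKhigh and 146 in c-Fmshigh cells, and Il18r1 had 181 in RANKhigh and 84.0 in c-Fmshigh cells. The third was Il1r2, the decoy receptor of interleukin-1, known from neutrophils and B cells, at 427 in RANKhigh against 181 in c-Fmshigh cells. Il17ra, the shared chain of the interleukin-17 receptors, was 1.73-fold lower (479 in RANKhigh, 828 in c-Fmshigh cells).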
